A study of Sus scrofa with 6 samples.

Results

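The serine and branched-chain amino acid enzymes were followed in IPEC-1, a non-transformed epithelial line from the small intestine of newborn piglets. The members were PHGDH, PSAT1, PSPH, SHMT1, SHMT2, BCAT1, BCAT2 and ASNS. They were found by their gene symbol in the annotation of the GeneChip Porcine Genome Array, and 9 of the 23999 probe sets compared carried the symbol of a member. These 9 probe sets measured 7 of the 8 genes. BCAT1 and SHMT1 had 2 probe sets each, the other 5 genes had 1 each, and SHMT2 had 0, so that SHMT2 was not analysed here.

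In ALI cultures (air-liquid interface) only a thin film of liquid covered the cells, whereas SMC cultures (submerged membrane culture) lay under a column of medium. Both grew on porous supports, first with serum, which was withdrawn stepwise, and then in medium free of serum. RNA of 3 ALI and 3 SMC cultures was hybridized to 6 arrays, with 1 ALI and 1 SMC array at each of the passages P109, P111 and P113. Both groups therefore stand for 3 passages of 1 cell line, and no array is labelled as tissue of an animal in its title or cell line. A free-text label names liver, against the titles, the cell line and the source name of the same samples, and it was not used.

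Serine is made from the glycolytic intermediate 3-phosphoglycerate in a short chain. PHGDH oxidizes it, PSAT1 transfers an amino group from glutamate, and PSPH removes the phosphate in the last step. SHMT1 in the cytosol and SHMT2 in mitochondria convert serine to glycine and load the released carbon unit onto folate. BCAT1 in the cytosol and BCAT2 in mitochondria move the amino group of leucine, isoleucine and valine to 2-oxoglutarate, the step with which breakdown of these amino acids begins. ASNS makes asparagine from aspartate with glutamine as nitrogen donor, and in human and mouse cells its gene is a known target of the stress factor ATF4.

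All values below are log2 values as deposited, and differences are ALI minus SMC. The array medians lay between 6.34 and 6.39, and values in the lowest 25% of an array, whose limit was 4.52 to 4.62, were treated as too dim to separate from background. Of 11 epithelial markers, 8 lay above the array median on all 6 arrays (CDH1, CLDN4, CLDN7, EPCAM, KRT8, KRT18, KRT19 and OCLN). The summed signal of all 11 was 50955 to 52418 in ALI and 47797 to 55636 in SMC cultures. CDX2 had no probe set with its symbol, and VIL1 had a log2 value of 5.69 to 6.37 in ALI and 6.43 to 6.75 in SMC cultures. Summed signals of fibroblast and smooth muscle markers were 1252 to 2661 in ALI and 2165 to 2355 in SMC cultures, those of immune markers 1496 to 1721 in ALI and 2343 to 2475 in SMC cultures, those of endothelial markers 272 to 315 in ALI and 333 to 365 in SMC cultures, and those of neural and glial markers 237 to 263 in ALI and 205 to 234 in SMC cultures. In each of the first 3 of these lists 1 gene was lower in ALI cultures (ACTG2 of 11 measured, AIF1 of 8 and PECAM1 of 8). Among 4 neural and 11 epithelial genes 0 were called. CNN1, DCN, LUM, CD79B, CD8A, PTPRC, CDH5, ENG, ERG, KDR and ELAVL4 lay in the lowest 25% on every array, as did epithelial TJP1. COL1A2, PDGFRB, TAGLN, AIF1 and PECAM1 lay above the array median on all 6 arrays. AIF1 had log2 values of 10.38 to 10.61 in ALI and 11.09 to 11.18 in SMC cultures and made up most of the immune sums. Mean log2 values, which weigh each gene alike, overlapped for immune markers (5.13 to 5.16 in ALI, 5.13 to 5.22 in SMC). They also overlapped for endothelial markers (4.45 to 4.74 and 4.53 to 4.73). For fibroblast and smooth muscle markers they were 5.89 to 5.96 and 6.05 to 6.22, and for neural and glial markers 5.60 to 5.76 and 5.46 to 5.57. The part of the cells that these markers stand for in the results below was not tested.

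PSPH and BCAT1 were lower in ALI than in SMC cultures, and the other enzymes of serine synthesis and the mitochondrial BCAT2 did not pass the test. Of the 9 probe sets, 3 were called lower and 0 higher at an adjusted p under 0.05 (limma, Benjamini-Hochberg over all probe sets). Over all probe sets, 1.23% were called lower and 0.663% higher. The methods' t-test gave 3 of the 9 without adjustment and 0 of the 9 after it, where 0 of all probe sets passed, and limma called 0 of the 9 without the ALI array of passage P109 or the SMC array of passage P111. Counted as genes, 2 of 7 were lower in this fit, which leaves out the passage, and 3 of 7 with the passage as a block. Among all 6765 named genes, 102 and 254 were lower in these 2 fits. The median log2 difference of the 9 probe sets was -0.09, against 0.02 over all probe sets. With 1 probe set per gene it was 0.01 over the 7 genes and 0.01 over all 6765 named genes.

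**Figure D1:**
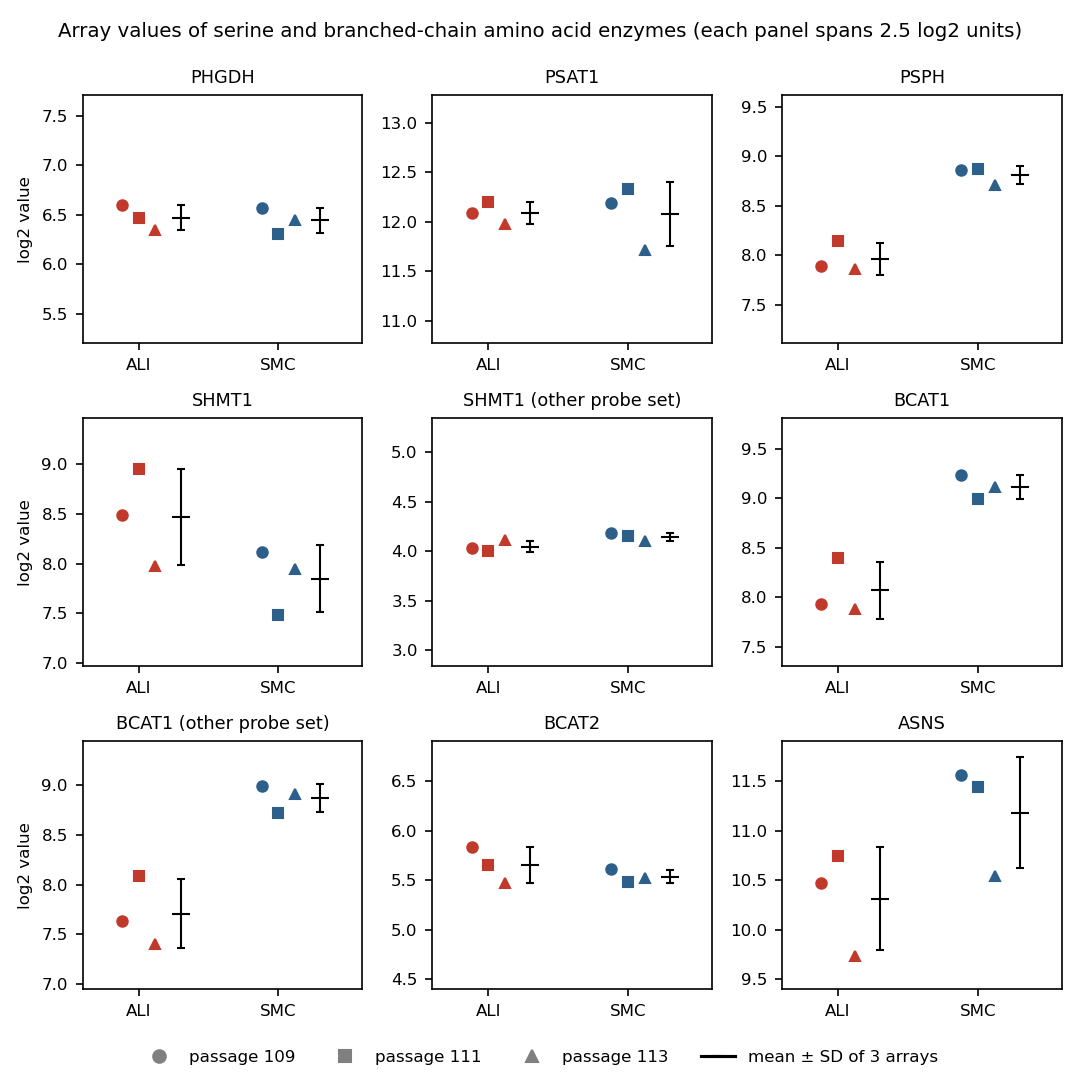
Log2 values of the 9 probe sets on each of 6 arrays, with ALI (red) left of SMC (blue), a symbol for each passage and the mean ± SD of 3 arrays beside them; all panels span the same number of log2 units. The ALI values of PSPH and of both BCAT1 probe sets lie below all SMC values, while those of ASNS overlap, with both arrays of passage P113 low.

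PHGDH, which catalyses the entry step of serine synthesis, had log2 values of 6.6, 6.47 and 6.35 in ALI cultures of passages P109, P111 and P113, against 6.57, 6.31 and 6.45 in the SMC cultures of the same passages. The groups overlapped throughout. The log2 difference was 0.03 (standard error 0.12, 95% interval -0.24 to 0.29, limma adjusted p = 0.947). PSAT1, the aminotransferase of the chain, had 12.09, 12.20 and 11.98 in ALI and 12.19, 12.33 and 11.72 in SMC cultures. Its lowest value was the SMC array of passage P113, and the log2 difference was 0.01 (standard error 0.16, 95% interval -0.36 to 0.39, limma adjusted p = 0.986). Changes within these intervals, which reach 0.29 log2 units for PHGDH and 0.39 for PSAT1, could not be told from 0 with 3 arrays a group. The size of a change that would have been called was not determined.

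PSPH, the phosphatase that releases serine, had log2 values of 7.89, 8.15 and 7.86 in ALI cultures and 8.86, 8.87 and 8.71 in SMC cultures. All ALI arrays lay below all SMC arrays, with 0.56 log2 units between the nearest values. The mean was 7.97 ± 0.161 in ALI and 8.81 ± 0.0886 in SMC cultures (SD, n = 3 each), so that the ALI signal was 55.7% of that in SMC. The log2 difference was -0.84 (standard error 0.12, 95% interval -1.11 to -0.58, limma adjusted p = 0.0145). The call was lost without the ALI array of passage P109 (adjusted p = 0.0783) and without the SMC array of passage P111 (0.0822).

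SHMT1, the cytosolic serine hydroxymethyltransferase, had 2 probe sets, of which 1 was too dim to separate from background. The brighter had log2 values of 8.49, 8.95 and 7.98 in ALI and 8.12, 7.48 and 7.95 in SMC cultures. The groups overlapped between the ALI array of passage P113 and the SMC array of passage P109. The log2 difference was 0.62 (standard error 0.25, 95% interval 0.04 to 1.20, limma unadjusted p = 0.0385, limma adjusted p = 0.313). It was 0.39 without the ALI array of passage P111 and 0.20 with the block and without passage P111. With the 2 probe sets averaged it was 0.26, but that average includes the dim probe set, which by itself lowers it. The dimmer probe set lay between 4.0 and 4.11 in ALI and between 4.10 and 4.18 in SMC cultures, in the lowest 25% on all 6 arrays, with a log2 difference of -0.09 (limma adjusted p = 0.715). The cytosolic enzyme was therefore not shown to differ between the culture types.

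BCAT1, the cytosolic branched-chain aminotransferase, gave the largest differences among the 9 probe sets, and its 2 probe sets moved alike. The brighter had log2 values of 7.93, 8.40 and 7.88 in ALI cultures and 9.23, 8.99 and 9.11 in SMC cultures. The other had 7.63, 8.09 and 7.40 in ALI and 8.99, 8.72 and 8.91 in SMC cultures. In both, the 3 ALI arrays lay below the 3 SMC arrays, and the array of passage P111 was the highest of the ALI and the lowest of the SMC group. The brighter averaged 8.07 ± 0.289 in ALI and 9.11 ± 0.121 in SMC cultures (SD, n = 3 each), a log2 difference of -1.04 (standard error 0.16, 95% interval -1.40 to -0.69, limma adjusted p = 0.0183). The ALI signal was 48.5% of that in SMC. The other probe set had a log2 difference of -1.17 (standard error 0.18, 95% interval -1.57 to -0.76, limma adjusted p = 0.0197).

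Both calls of BCAT1 were lost without the ALI array of passage P109 (limma adjusted p = 0.0890 and 0.0935), the SMC array of passage P109 (0.0608 and 0.0640) or the SMC array of passage P111 (0.0739 and 0.0741), and that of the dimmer probe set without the SMC array of passage P113 (0.0526). Across these fits the log2 difference of the brighter probe set stayed between -1.21 and -0.95.

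BCAT2, the mitochondrial counterpart, had log2 values of 5.83, 5.65 and 5.47 in ALI and 5.61, 5.48 and 5.52 in SMC cultures. All of them lay below the array median, and whether the weak signal narrowed the differences of BCAT2 was not tested. The groups overlapped, and the log2 difference was 0.12 (standard error 0.12, 95% interval -0.16 to 0.39, limma adjusted p = 0.721). It lay between 0.02 (without the ALI array of passage P109) and 0.20 (without the ALI array of passage P113) with 1 array left out. Between the aminotransferases, the change of BCAT1 minus that of BCAT2 was -1.16 log2 units (standard error 0.19), and it was negative in each passage (-1.53, -0.75 and -1.20). The change of PSPH differed from that of PHGDH by -0.87 (standard error 0.15) and from that of PSAT1 by -0.86 (standard error 0.14), and that of ASNS from PSAT1 by -0.88 (standard error 0.29). Each of these 4 pairs, chosen after the values were seen, gave p = 0.1 in a two-sided exact permutation test of the within-array difference, raw and adjusted over the 4, which is the smallest p that 3 against 3 arrays allow. All 4 differences were negative in all 3 passages.

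ASNS, asparagine synthetase, had log2 values of 10.47, 10.74 and 9.74 in ALI cultures, against 11.56, 11.44 and 10.54 in SMC cultures. The array of passage P113 was the lowest of each group, and the SMC array of passage P113 lay below the ALI array of passage P111, so that the groups overlapped. The mean was 10.31 ± 0.517 in ALI and 11.18 ± 0.560 in SMC cultures (SD, n = 3 each). The log2 difference of -0.87 was about as large as that of PSPH, but its standard error was 0.32 and it did not pass the test (95% interval -1.60 to -0.13, limma adjusted p = 0.263).

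**Figure D2:**
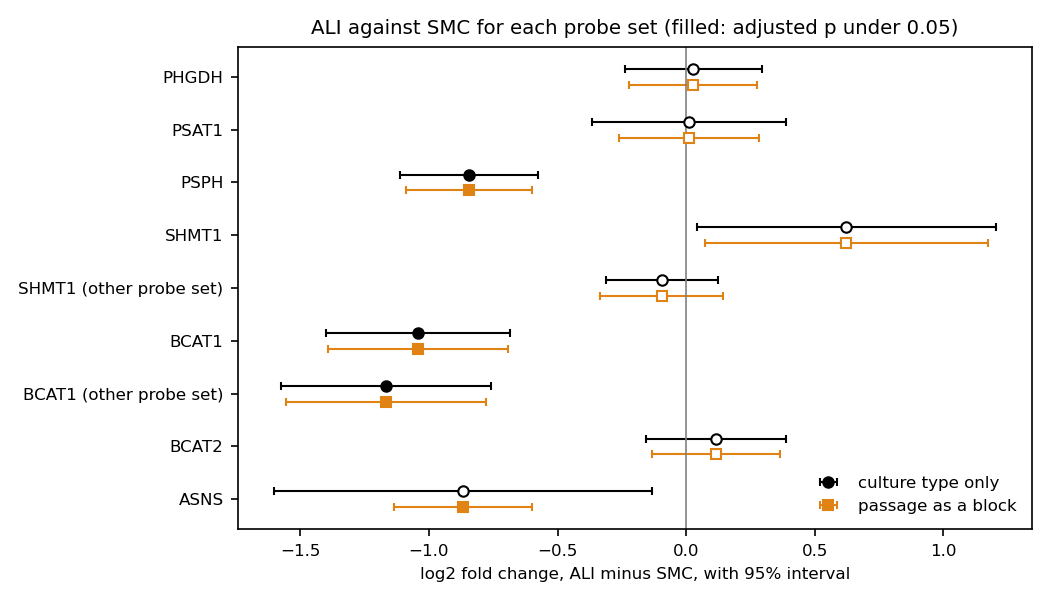
Log2 fold change (ALI minus SMC) of each probe set with its 95% interval, from the fit with culture type only (circles, above) and with the passage as a block (squares, below); filled symbols mark an adjusted p under 0.05. PSPH and both BCAT1 probe sets are filled in both fits, and ASNS at -0.87 is filled only with the block, where its standard error falls to 0.12.

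Each ALI culture had its SMC counterpart at the same passage, and with the passage as a block ASNS was also lower. Its standard error was then 0.12 (95% interval -1.14 to -0.60) and its limma adjusted p 0.00579. In the blocked fit 4 of the 9 probe sets were lower and 0 higher, against 3.32% lower and 2.0% higher over all probe sets. These 4 measured 3 genes, namely PSPH (adjusted p = 0.00454), BCAT1 (0.00792 for both probe sets) and ASNS. The 4 calls held when both arrays of any 1 passage were left out of the blocked fit, with an adjusted p for ASNS of 0.0143 to 0.0269. SHMT1 did not pass with the block (adjusted p = 0.201 for the brighter probe set), nor did PHGDH, PSAT1 or BCAT2 (0.625 to 0.975).

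Within the passages P109, P111 and P113, ASNS differed by -1.10, -0.70 and -0.80 log2 units, PSPH by -0.97, -0.72 and -0.85, and the brighter BCAT1 probe set by -1.30, -0.59 and -1.24. Each of these values rests on 1 ALI and 1 SMC array and has no error of its own. For all 3 genes passage P111 gave the smallest difference. The brighter SHMT1 probe set was above 0 in each passage, at 0.37, 1.47 and 0.03, so that most of its mean came from passage P111, and the dimmer had -0.14, -0.15 and 0.01. The differences of PHGDH (0.03, 0.16 and -0.10), PSAT1 (-0.10, -0.13 and 0.26) and BCAT2 (0.23, 0.16 and -0.04) had both signs. In all, 4 of the 9 probe sets were lower in ALI in all 3 passages, against 18.5% of all probe sets, and 1 was higher in all 3, against 22.7%. All ALI arrays lay below all SMC arrays for 3 of the 9, against 9.27% of all probe sets, and above them for 0, against 10.3%.

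**Figure D3:**
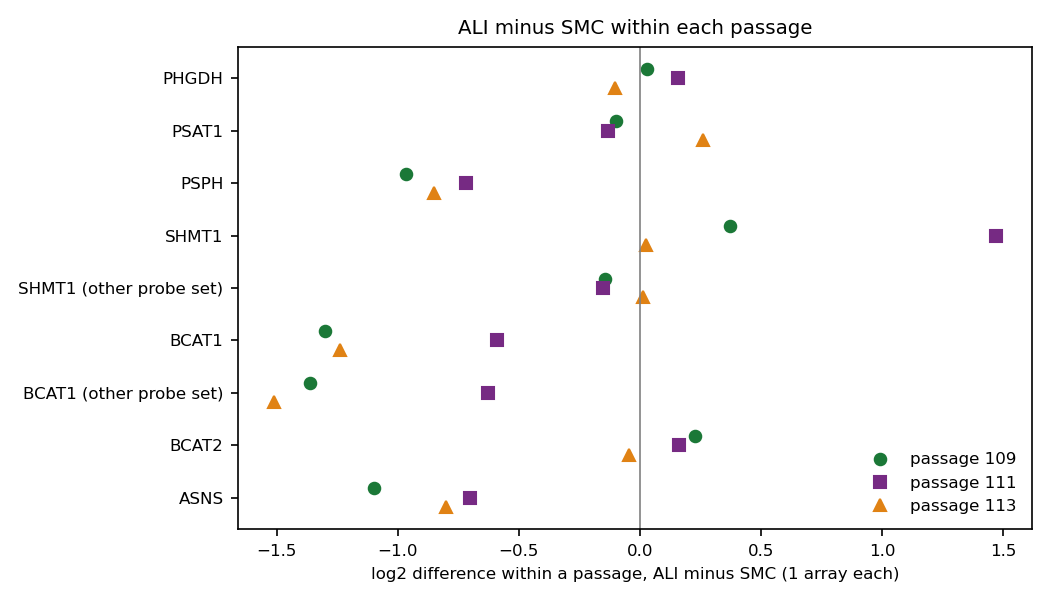
Log2 difference between the ALI and the SMC array of the same passage for each probe set, with a symbol for each passage. PSPH, BCAT1 and ASNS are negative in all 3 passages, the brighter SHMT1 probe set reaches 1.47 only in passage P111, and PHGDH, PSAT1 and BCAT2 lie on both sides of 0.

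The passages themselves differed most for ASNS. Averaged over both culture types, its log2 value was 0.07 higher in passage P111 and 0.88 lower in passage P113 than in passage P109. Passage P111 lay above P109 in ALI (10.74 against 10.47) and below it in SMC cultures (11.44 against 11.56). The moderated F test of passage in limma gave an unadjusted p of 2.54e-04 and an adjusted p of 0.0762, so that ASNS was not called. PSAT1 followed with 0.13 and -0.29 (unadjusted p = 0.0536, adjusted p = 0.35), and its fall in passage P113 was in the SMC culture (11.72 against 12.19 and 12.33) more than in the ALI culture. The other 7 probe sets had adjusted p between 0.632 and 0.992. At an adjusted p under 0.05, 0 of the 9 probe sets differed between passages, as did 0.05% of all probe sets, and 1 of the 9 had an unadjusted p under 0.05, against 3513 of all 23999.

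Genes of lower glycolysis lie on both sides of 3-phosphoglycerate, from which the serine branch leaves the pathway. Of 8 measured genes 4 were lower in ALI cultures and 0 were higher, with a median log2 difference of -0.33, against 102 lower and 69 higher genes among 6765 and a median of 0.01. PGK1, the kinase that forms 3-phosphoglycerate, had log2 values of 11.49, 11.65 and 11.27 in ALI and 13.37, 12.85 and 13.11 in SMC cultures, a log2 difference of -1.64 (standard error 0.16, limma adjusted p = 0.00376). GAPDH, the enzyme before it, differed by -0.74 (adjusted p = 0.0107), and ENO1, which works after 3-phosphoglycerate has been isomerized, by -1.64 (adjusted p = 0.00442). LDHA, which makes lactate, differed by -2.24 (adjusted p = 0.00350). The differences of the other 4, BPGM, ENO2, ENO3 and PKM, were above 0 and did not pass. GAPDH has 5 probe sets, of which 4 were called lower. The value of -0.74 is that of the brightest, and the other called ones had -1.19, -1.28 and -1.21 (adjusted p = 0.00253 to 0.00915). The dimmest had -0.25 and lay in the lowest 25% on all 6 arrays. The call of the brightest was lost without the ALI array of passage P109 or the SMC array of passage P111 (adjusted p up to 0.0634).

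Of 12 genes of folate metabolism, which takes up the carbon unit of serine, 0 were called in either direction, and the median log2 difference was -0.07. Over all named genes 1.51% were called lower and 1.02% higher, and 3.75% and 2.25% with the passage as a block. Against these shares, 0 or 1 called gene in this list or the short lists below is not a result about its pathway. The 2 farthest from 0 were MTHFD2, a mitochondrial folate dehydrogenase, at -0.55 (standard error 0.23, limma adjusted p = 0.323) and TYMS, the thymidylate synthase, at -0.49 (adjusted p = 0.474), whose dimmer probe set had 0.09. With the passage as a block MTHFD2 was lower (adjusted p = 0.0252), the 1 gene of the list that passed. Its log2 values were 8.91, 8.45 and 8.34 in ALI and 9.59, 9.0 and 8.76 in SMC cultures.

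Of 7 genes of glycine cleavage and other uses of serine, 0 were called. CTH, the cystathionine lyase of cysteine synthesis, had 7.82, 7.71 and 7.09 in ALI and 8.54, 8.45 and 7.54 in SMC cultures, with the array of passage P113 lowest in each group as for ASNS. Its log2 difference was -0.64 (standard error 0.29, limma adjusted p = 0.360), and with the block it passed (adjusted p = 0.0159). AMT, the aminomethyltransferase of glycine cleavage, had -0.46 (adjusted p = 0.12) on its brightest probe set, and -0.02 and 0.21 on the others.

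Breakdown of branched-chain amino acids beyond the aminotransferases showed 0 called genes of 16, without and with the block. The median log2 difference was 0.08, with 11 positive and 5 negative values. The farthest from 0 were HSD17B10, a mitochondrial dehydrogenase of isoleucine breakdown, at 0.31 (standard error 0.14, limma adjusted p = 0.368) and BCKDK, the kinase that inhibits the branched-chain ketoacid dehydrogenase, at -0.28 (adjusted p = 0.395). BCAT1 itself had -1.04.

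Of 14 enzymes of glutamate, aspartate, arginine and proline metabolism 0 were called. OAT, the ornithine aminotransferase, had log2 values of 11.46, 11.40 and 10.74 in ALI and 10.62, 10.35 and 10.49 in SMC cultures. All ALI values were above all SMC values, and the log2 difference was 0.71 (standard error 0.19, limma adjusted p = 0.127, with the block 0.0404). ARG2, the mitochondrial arginase, was the other of the farthest at -0.31 (adjusted p = 0.737), and its 3 probe sets ranged from -0.39 to 0.25.

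Genes of the amino acid response, to which ASNS belongs in human and mouse cells, had a median log2 difference of -0.20, and 0 of 11 were called. VLDLR, a lipoprotein receptor, had 8.94, 8.90 and 9.71 in ALI and 10.00, 10.19 and 10.54 in SMC cultures, a log2 difference of -1.06 (standard error 0.23, limma adjusted p = 0.0684), and its dimmer probe set had -0.30. CEBPG, a partner of ATF4, had -0.64 (adjusted p = 0.253). Both were lower with the block (adjusted p = 0.00288 and 0.0461). ATF4 itself had -0.29 and did not pass without or with the block (adjusted p = 0.474 and 0.177). In the list of 11, 7 differences were negative and 4 positive. Whether the response as such was lowered was not tested.

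Of 15 aminoacyl-tRNA synthetases, which charge tRNAs with amino acids, 1 was lower and 0 were higher. The median log2 difference was -0.21, with 12 negative and 3 positive values, against 3243 negative and 3522 positive among all named genes. DARS, the aspartyl-tRNA synthetase, had 7.26, 7.43 and 7.15 in ALI and 8.31, 8.05 and 8.30 in SMC cultures, without overlap. Its log2 difference was -0.94 (standard error 0.12, limma adjusted p = 0.0112), and the call was lost without the ALI array of passage P109 (0.0637). Its dimmer probe set had -0.91 and did not pass (adjusted p = 0.137). GARS, the glycyl-tRNA synthetase, named after its values were seen, had 10.82, 10.68 and 10.23 in ALI and 11.62, 11.59 and 10.94 in SMC cultures. Its brightest probe set had -0.81 (adjusted p = 0.126, with the block 0.00489), and its other 2 had -0.89 and -0.95 and were called (adjusted p = 0.0463 and 0.0428). As for ASNS and CTH, passage P113 gave the lowest value of GARS in each group. The same held for other measured genes, among them NARS, WARS and the epithelial markers OCLN and KRT18. The share of all probe sets with this order was not counted.

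Among 11 amino acid transporters 0 were called, and the median log2 difference was 0.01. SLC1A1, a transporter of glutamate and aspartate, had -0.82 (standard error 0.26, limma adjusted p = 0.184, with the block 0.0216) on the brightest of its 5 probe sets. Of the others, those below 0 had -0.61 (adjusted p = 0.171, with the block 0.0229) and -0.18. Those above 0 had 0.29 and 0.13 and lay in the lowest 25% on all 6 arrays. SLC7A1, a transporter of cationic amino acids, had -0.42 (adjusted p = 0.447).

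**Figure D4:**
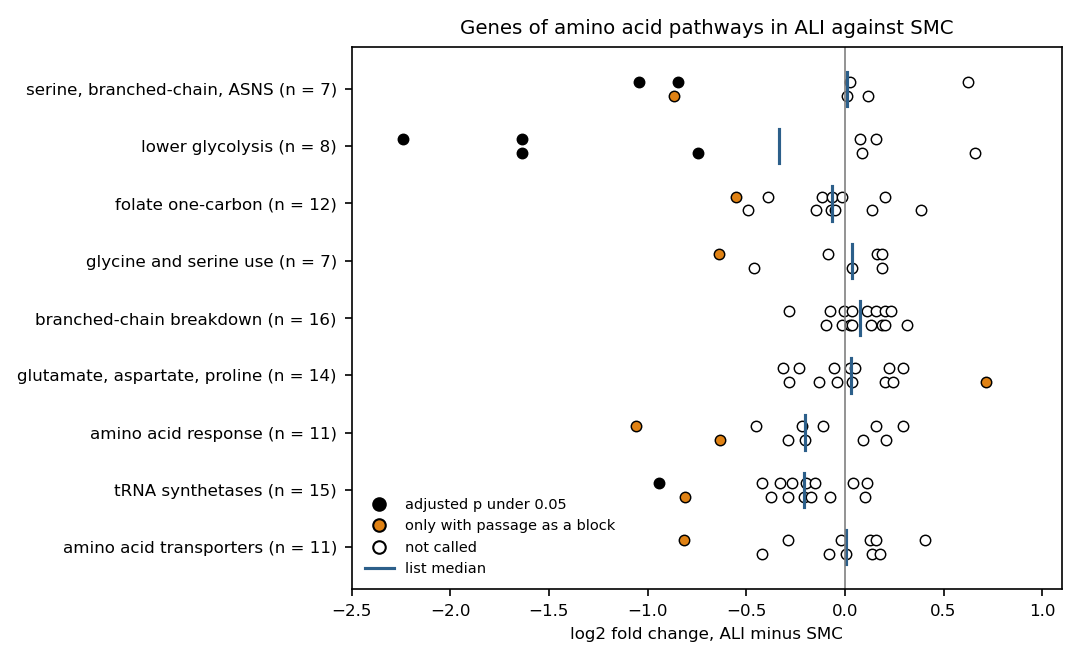
Log2 fold change (ALI minus SMC) of each measured gene in 9 lists, with 1 probe set per gene; black points passed at an adjusted p under 0.05, orange points only with the passage as a block, and the blue line is the list's median. Lower glycolysis (median -0.33) holds 4 of the black points. The lists of folate, glycine and serine use, branched-chain breakdown, glutamate, aspartate and proline, amino acid response and transporters hold 0 black points. Over all named genes 1.51% were called lower and 1.02% higher.

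Over the 6 arrays, the genes whose log2 values ran most like those of PSPH among 5061 named genes with a mean above 6 were SLC2A2, a facilitative glucose transporter (Pearson's r = 0.995), TEAD1, a transcription factor of the Hippo pathway (0.993), and ITGAV, an integrin chain (0.992). Most like BCAT1 were P4HA2, a prolyl hydroxylase of collagen (0.989), EEA1, a protein of early endosomes (0.989), and LDHA (0.987). SLC2A2 differed by -1.22 log2 units between ALI and SMC cultures (limma adjusted p = 0.00759) and P4HA2 by -1.85 (adjusted p = 0.00305). All these values share the same 6 arrays in 2 groups, so that a like difference between the groups is enough for a high r, which is given as a description. In RNA of whole cultures, fewer cells with a transcript and less of it per cell cannot be told apart.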

How the data were processed

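IPEC-1 RNA from 3 ALI and 3 SMC cultures was measured on 6 GeneChip Porcine Genome Arrays. Per the paper's methods, the authors analyzed the arrays with GCOS, for which the methods and the submitters' processing notes name different versions, and normalized them by GC-RMA. The deposited table gives 24123 probe sets on the log2 scale without stating how they were normalized, and no detection calls were used. The values were not scaled again. After 124 control probe sets were removed, a linear model of culture type was fitted to 23999 (lmFit, eBayes, limma 3.58.1, R 4.3.3), and the Benjamini-Hochberg adjustment covered all of them.

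Symbols came from the platform annotation (10069 probe sets with 1 symbol, 198 with several, 13732 with none), and for 6693 of 6765 genes the entrez identifier matched RefSeq, with 0 symbols changed. In lists, the probe set with the highest mean stood for a gene. Named are all members' probe sets, up to 6 called genes of each list or the 2 farthest from 0, and the 3 genes most like each called member. Members and lists were chosen with earlier results of these data known.

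After subtraction of the group mean, ALI and SMC arrays of P109, P111 and P113 correlated over probe sets at 0.34, 0.14 and 0.451, and at -0.424 to 0.219 between passages. The labels give the shared passage, but the main fit had no term for it and did not use the pairing. The passage was an alternative block. Other alternatives were quantile normalization, filters on dim probe sets, an intensity trend, leaving out arrays, the methods' t-test and averaging the probe sets of a gene. The fits were tested on simulated data with independent noise and no passage effect. That test therefore cannot decide between the fits with and without the block. The number of arrays limits the precision. Where separate cultures are not stated, p-values measure the spread between these arrays.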

Additional observations from a re-analysis of the deposited data

How the results depend on the processing

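The calls of PSPH and BCAT1 held with quantile normalization, with dim probe sets removed (mean under 4 or under 6 on the log2 scale), with an intensity trend and with the replicate block, and a fold change of at least 1.5 kept all 3 called probe sets. Leaving out 1 array gave 0 to 3 called members, with log2 differences of -0.94 to -0.79 for PSPH and -1.21 to -0.95 for BCAT1. It gave -0.038 to 0.090 for PHGDH and -0.17 to 0.14 for PSAT1, which turned their sign, and in the replicate block without P111 PHGDH had -0.038 and without P113 PSAT1 had -0.11. ASNS was called only with the replicate block (-0.87), also without P109 (-0.75), P111 (-0.95) or P113 (-0.90). The fits that leave out a passage were chosen after the data were seen. Over all probe sets 159 were higher and 296 lower in ALI, 480 and 796 with the replicate block, and 42 to 174 and 71 to 258 with 1 array left out. The methods' t-test gave 1468 higher and 1423 lower at an unadjusted p under 0.05 and 0 and 0 after adjustment. Of the members' probe sets, 3 passed it before adjustment and 0 after. The cause of these changes was not tested. Background correction and slide or scan date were not run, since no scanner files were used.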
